A study of Mus musculus with 6 samples.

Results

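The Kruppel-like factors (KLFs) are transcription factors that carry 3 zinc fingers at the C-terminal end of the protein, and the 9 genes described here are Klf2, Klf3, Klf4, Klf5, Klf6, Klf9, Klf10, Klf13 and Klf16. They were chosen by gene symbol, with earlier results of these data known. They come, 1 locus each, from the 17 Klf loci among the 23244 loci listed in every library. Their RNA was measured by sequencing of ribosomal-RNA-depleted total RNA from mouse embryonic stem (ES) cells, in 3 Zscan10-null libraries and 3 floxed control libraries. The Zscan10-null cells are a subcloned ES line that lacks the zinc-finger gene Zscan10 constitutively. The floxed controls are ES cells in which Zscan10 is flanked by loxP sites, the targets of Cre recombinase, but has not been deleted, and their titles carry the mark -Tx, which the labels do not explain. The study asked whether ES cells need Zscan10 to stay pluripotent. Because the null cells are a subclone, clone, genotype and any difference in treatment cannot be told apart, and since the labels do not state whether replicates were separate cultures, p-values reflect a spread among libraries that may be technical. In bulk RNA, fewer cells of a type and less RNA per cell also cannot be told apart.

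KLF proteins bind GC-rich and CACCC-containing DNA through fingers that differ little between paralogs, so that several members can occupy the same sites. In mouse ES cells Klf2, Klf4 and Klf5 belong to the transcription circuit of the naive state and cover for each other: Klf4 and Klf5 respond to leukaemia inhibitory factor (LIF) through STAT3, and Klf2 is placed downstream of the factor encoded by Pou5f1. Klf3 encodes a repressor that recruits the corepressor CtBP, while Klf9, Klf10, Klf13 and Klf16 encode repressors that recruit SIN3A, and Klf6 encodes a broadly expressed activator induced by growth signals and injury.

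The coding stretch of the 3 fingers is shown for Klf2, Klf4, Klf5 and Klf9, because the first 3 share a role in ES cells and Klf9 moved the other way. Each is 243 bases long, was read from the GENCODE M21 transcript (GRCm38) paired with the RefSeq accession in the files, and has the 12 codons of its zinc-binding cysteines and histidines in capitals.
Klf2: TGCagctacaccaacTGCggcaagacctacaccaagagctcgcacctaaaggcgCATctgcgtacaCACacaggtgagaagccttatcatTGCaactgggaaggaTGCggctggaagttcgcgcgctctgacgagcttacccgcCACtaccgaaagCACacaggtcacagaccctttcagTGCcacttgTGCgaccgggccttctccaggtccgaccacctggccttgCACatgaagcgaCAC
Klf4: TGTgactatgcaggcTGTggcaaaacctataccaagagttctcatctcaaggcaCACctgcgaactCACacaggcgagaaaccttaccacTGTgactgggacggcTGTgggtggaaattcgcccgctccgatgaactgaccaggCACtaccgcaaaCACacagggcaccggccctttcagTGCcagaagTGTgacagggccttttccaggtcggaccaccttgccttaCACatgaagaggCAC
Klf5: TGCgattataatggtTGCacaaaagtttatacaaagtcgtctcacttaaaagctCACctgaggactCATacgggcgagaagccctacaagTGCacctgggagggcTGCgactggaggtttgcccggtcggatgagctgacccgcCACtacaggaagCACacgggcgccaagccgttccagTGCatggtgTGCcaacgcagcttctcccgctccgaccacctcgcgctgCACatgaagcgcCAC
Klf9: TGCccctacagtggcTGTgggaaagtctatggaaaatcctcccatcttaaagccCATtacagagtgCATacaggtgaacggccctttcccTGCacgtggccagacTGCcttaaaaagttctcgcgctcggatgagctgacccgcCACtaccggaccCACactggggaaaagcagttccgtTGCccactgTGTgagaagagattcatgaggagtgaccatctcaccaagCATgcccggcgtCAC
Aligned without gaps over these 243 bases, Klf2 and Klf4 were identical at 78.2% of positions, the highest of the 36 pairs of members, and Klf13 and Klf16 at 75.3%. Klf9 was identical to Klf2 at 60.1%, to Klf4 at 57.2% and to Klf5 at 60.9%. The median over the pairs was 64.8%. The longest identical run between any pair of member transcripts was 24 bases, in the fingers of Klf5 and Klf9, and reads tcggatgagctgacccgccactac. The members are therefore paralogs with only short identical stretches, and whether the authors' alignment shared reads between them was not tested.

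The members lie on 9 different chromosomes (mm10, which is GRCm38, RefSeq coordinates). Klf2 is on chromosome 8 (72319062 to 72321654, 3 exons), Klf3 on chromosome 5 (64803521 to 64832901, 6 exons), Klf4 on chromosome 4 (55527137 to 55532475, 5 exons) and Klf5 on chromosome 14 (99298691 to 99313412, 4 exons). Klf6 is on chromosome 13 (5861489 to 5870393, 4 exons), Klf9 on chromosome 19 (23141226 to 23168129, 2 exons) and Klf10 on chromosome 15 (38291464 to 38300711, 4 exons). Klf13 is on chromosome 7 (63886351 to 63938915, 2 exons) and Klf16 on chromosome 10 (80567121 to 80577296, 2 exons). GENCODE places antisense genes over Klf3 (Gm20033) and Klf13 (Gm27252 and E030018B13Rik). It also places C230096K16Rik over Klf3 on the same strand, and strand use in counting is not stated. The E030018B13Rik locus was listed at 0.1505, 0.136 and 1.04 FPKM in null libraries and at 0.445, 0.409 and 0.447 FPKM in control libraries, low beside Klf13.

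Promoters of 6 members were in the RefSeq table used (GRCm38.p6, 250 bases before to 50 after the start). Those of Klf2, Klf3 and Klf9 are shown because these genes passed the test described next, the first pair lower and Klf9 higher. Capitals mark the CACCC box searched as CCACCC and the GC box searched as GGGCGG, each on both strands; both are sequences that KLF and SP proteins bind.
Klf2, chr8:72318812-72319111, plus strand: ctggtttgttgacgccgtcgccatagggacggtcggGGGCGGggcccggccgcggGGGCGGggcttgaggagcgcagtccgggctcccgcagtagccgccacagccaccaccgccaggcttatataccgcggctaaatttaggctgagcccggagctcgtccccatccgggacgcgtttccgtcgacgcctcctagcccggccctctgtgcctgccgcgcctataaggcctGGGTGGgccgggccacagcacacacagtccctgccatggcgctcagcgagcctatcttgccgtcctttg
Klf3, chr5:64803271-64803570, plus strand: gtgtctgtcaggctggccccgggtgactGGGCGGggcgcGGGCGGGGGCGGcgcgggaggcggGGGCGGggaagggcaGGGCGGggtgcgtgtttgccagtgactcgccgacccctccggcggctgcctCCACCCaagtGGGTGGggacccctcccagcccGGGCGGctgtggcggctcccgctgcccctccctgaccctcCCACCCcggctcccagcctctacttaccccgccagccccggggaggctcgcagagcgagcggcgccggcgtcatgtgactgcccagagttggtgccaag
Klf9, chr19:23140976-23141275, plus strand: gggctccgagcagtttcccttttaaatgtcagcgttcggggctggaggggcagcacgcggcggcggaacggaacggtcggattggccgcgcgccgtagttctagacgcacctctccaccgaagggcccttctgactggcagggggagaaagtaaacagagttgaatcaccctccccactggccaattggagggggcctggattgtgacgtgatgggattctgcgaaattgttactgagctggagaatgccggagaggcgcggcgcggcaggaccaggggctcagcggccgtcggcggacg
Klf2 held 1 CACCC box and 2 GC boxes, Klf3 held 3 and 6 (none overlapping), and Klf9 held 0 of either in these letters. Of the other promoters, Klf4 held 0 and 4, Klf6 held 0 and 1, and Klf13 held 1 and 3. Across all 32851 promoters of the same length, 31.5% held a CACCC box and 35.7% a GC box. A STAT site searched as TTCCNGGAA was in 0 of the 6 and in 1.15% of all promoters.

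Values are given in FPKM, which divide fragments by transcript length and by library depth, so levels can be compared between genes. Zscan10 itself was at 5.49, 4.43 and 5.47 FPKM in null libraries, against 44.2, 43.0 and 41.9 FPKM in control libraries. The null mean was 11.9% of the control mean, and the labels do not say which part of the gene was deleted. The FPKM values summed to between 664555.4 and 678199.8 in the null libraries and between 685904.9 and 699400.9 in the control libraries. Library depth, read from the spacing of low values, was 0.986 to 1.09 relative to control replicate 1, which held roughly 7920000 fragments. Pearson correlations of log2(FPKM + 1) across the tested loci were 0.9623 to 0.9763 between null and control libraries, against 0.9745 to 0.9834 between libraries of 1 group. The highest between the groups was that of null replicate 1 with control replicate 3, while null replicate 1 correlated at 0.9669 and 0.9675 with control replicates 1 and 2. On that rough estimate a member rested on 273 fragments (Klf16, control replicate 1) to 3110 fragments (Klf9, null replicate 2) in a library, with counting errors at its lowest library of 2.05% for Klf9 to 6.06% for Klf16. Groups were compared with limma on log2(FPKM + 1) at the 11480 loci whose mean reached 1 FPKM, and a locus was called at a Benjamini-Hochberg adjusted p under 0.05. All 9 members passed the minimum.

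Klf2, Klf5 and Klf3 were lower and Klf9 was higher in Zscan10-null cells, and Klf4, Klf6, Klf10, Klf13 and Klf16 did not pass the test. In all, 4 of 9 members were called, where 25.2% of all tested loci were. The members were chosen with earlier results of these data known, so these shares are descriptions. Of the 14 tested Klf loci, Klf15 was the only other one called. Taken by direction, 3 of 9 members fell and 12.4% of loci did, and 1 of 9 rose and 12.8% of loci did. The median log2 fold change of the members was -0.14 and that of all tested loci was -0.003. All changes were small: the largest, that of Klf2, was 0.34 in size on the log2 scale, and 51.8% of the 2894 called loci changed by more. The null and control values did not overlap for 6 of 9 members (Klf2, Klf3, Klf5, Klf9, Klf13 and Klf16) and for 44.1% of tested loci. Members lay in the upper part of the expression range, from the 52.6th percentile of tested loci for Klf13 to the 92.8th for Klf2.

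**Figure D1:**
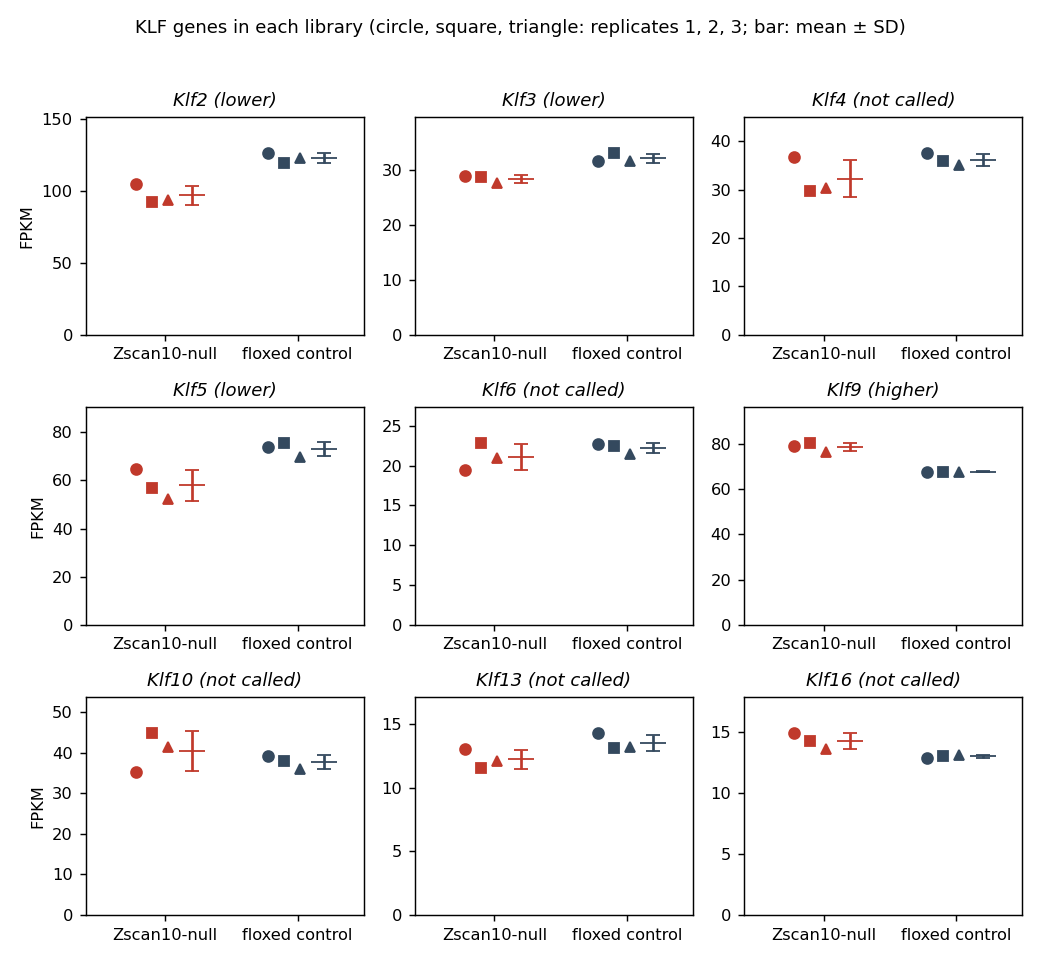
FPKM (linear axis from 0) of each KLF gene in the 3 Zscan10-null libraries (red, left) and the 3 floxed control libraries (dark, right), with the mean and SD beside the points. Klf2, Klf3 and Klf5 lie lower in every null library than in any control library, Klf9 lies higher, and the null library marked by a circle (replicate 1) sits at the control level for Klf4.

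Klf2, which encodes a naive-state factor, was the most abundant member in every library. It had 104.7, 92.3 and 94.0 FPKM in null libraries, against 126.4, 119.3 and 123.2 FPKM in control libraries. The lowest control library was above the highest null library. The means were 97.0 ± 6.70 FPKM in null cells and 122.9 ± 3.55 FPKM in control cells (SD, n = 3 each), so the level fell by 21.1%. On the log2 scale this was -0.34 (SE 0.05, 95% interval -0.47 to -0.21, limma adjusted p = 0.00475).

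Klf5, the LIF-responsive member that is also needed in the early embryo, fell by 20.55%, nearly the proportion of Klf2. It had 64.9, 56.7 and 52.4 FPKM in null libraries and 74.0, 75.4 and 69.55 FPKM in control libraries. Groups did not overlap, but the null libraries were spread over a range wider than that of the controls, with replicate 1 nearest to them. The means were 58.0 ± 6.36 FPKM in null cells and 73.0 ± 3.05 FPKM in control cells (SD, n = 3 each), and the log2 fold change was -0.33 (SE 0.08, limma adjusted p = 0.01975). The call was lost when null replicate 2 (adjusted p = 0.0588), control replicate 1 (0.0626) or control replicate 2 (0.0696) was left out.

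Klf4, the reprogramming factor of the family, had 36.7, 29.7 and 30.3 FPKM in null libraries and 37.5, 35.8 and 34.99 FPKM in control libraries. Null replicate 1 lay within the control range, and the other null libraries lay below it. The means were 32.2 ± 3.86 FPKM in null cells and 36.1 ± 1.28 FPKM in control cells, and the log2 fold change of -0.17 (SE 0.08, 95% interval -0.35 to 0.02) did not pass the test (limma adjusted p = 0.174). The interval includes no change and a fall to 0.782 times the control level. Without null replicate 1 Klf4 passed, with a log2 fold change of -0.26 and a limma adjusted p of 0.0117; over the 6 fits that each left out 1 library the adjusted p ran from 0.0117 to 0.389.

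Klf3, the CtBP-recruiting repressor, had 28.8, 28.6 and 27.5 FPKM in null libraries and 31.5, 33.0 and 31.6 FPKM in control libraries. The difference was modest but the libraries of each group lay close together and did not overlap, with SDs of 0.718 FPKM in null cells and 0.805 FPKM in control cells. The log2 fold change was -0.17 (SE 0.04, limma adjusted p = 0.0235). Klf4 differed by a like amount, but its libraries were more spread. The call of Klf3 was lost on leaving out any library except null replicate 1, with adjusted p-values of 0.0511 (null replicate 2), 0.0686 (null replicate 3), 0.0615, 0.0887 and 0.0554 (control replicates 1, 2 and 3).

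Klf9, a hormone-responsive repressor, was the only member called higher. It had 78.9, 80.1 and 76.3 FPKM in null libraries and 67.6, 67.3 and 67.6 FPKM in control libraries. The control libraries lay very close together and every null library was above them. The control SD was 0.243% of the mean, under the rough counting error of 2.05% at the lowest library of Klf9. The null mean of 78.4 ± 1.94 FPKM was 1.16 times the control mean of 67.5 ± 0.164 FPKM (SD, n = 3 each), and its log2 fold change was 0.21 (SE 0.03, limma adjusted p = 0.00537). Klf2 and Klf9 kept their calls in all 14 alternative fits.

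Klf16, Klf13 and Klf10, the other SIN3A-recruiting members, were not called. Klf16 had 14.9, 14.3 and 13.6 FPKM in null libraries and 12.9, 13.0 and 13.1 FPKM in control libraries, with every null value above every control value (log2 fold change 0.12, SE 0.05, 95% interval -0.0016 to 0.24, limma adjusted p = 0.132). Klf13 had 13.0, 11.5 and 12.1 FPKM in null libraries and 14.3, 13.1 and 13.2 FPKM in control libraries, the reverse order, with null replicate 1 just under the lowest control (log2 fold change -0.14, SE 0.06, 95% interval -0.28 to 0.01, limma adjusted p = 0.159). Thus the pair with closely related fingers had opposite signs, neither past the test.

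Klf10, known for its induction by TGF-beta, had 35.2, 44.8 and 41.5 FPKM in null libraries and 39.3, 37.9 and 36.0 FPKM in control libraries. Null replicate 1 was the lowest of all 6 libraries and the other null libraries were the highest (log2 fold change 0.09, SE 0.09, 95% interval -0.11 to 0.29, limma adjusted p = 0.458). Klf6 had 19.5, 22.8 and 20.9 FPKM in null libraries and 22.7, 22.5 and 21.5 FPKM in control libraries, and its groups overlapped (log2 fold change -0.08, SE 0.06, 95% interval -0.22 to 0.07, limma adjusted p = 0.413). The spread between null libraries was wider than between controls for these genes: the SD was 12.04% of the mean for Klf10, 11.98% for Klf4 and 10.96% for Klf5 in null cells, against 4.41%, 3.55% and 4.18% in control cells. For Klf9 and Klf3 it was 2.47% and 2.54% in null cells, against 0.243% and 2.51% in control cells.

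**Figure D2:**
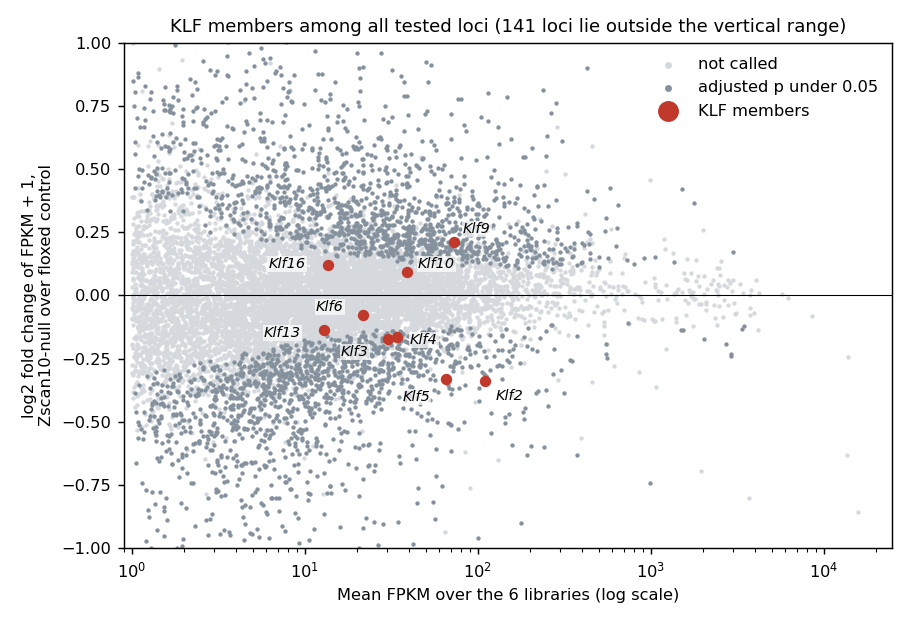
Log2 fold change of FPKM + 1 (Zscan10-null over floxed control) against mean FPKM over the 6 libraries (log axis) for the 11480 tested loci, called loci in dark grey and KLF members in red; 141 loci lie beyond the vertical range. Klf2 and Klf5 lie lowest among the members, at log2 fold changes of -0.34 and -0.33, and Klf9 lies highest at 0.21.

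Compared with one another, the paralogs kept much of their order. In all 6 libraries Klf2 came first, Klf3 sixth and Klf6 seventh. Klf9 ranked above Klf5 in all 3 null libraries, at means of 78.4 and 58.0 FPKM, whereas Klf5 ranked above Klf9 in all 3 control libraries, at means of 73.0 and 67.5 FPKM. Likewise Klf16 ranked above Klf13 in each null library, at 14.3 and 12.2 FPKM, and below it in each control library, at 13.0 and 13.5 FPKM. Among neighbours in the order, the ranges of Klf10 and Klf4 overlapped within both groups, and those of Klf13 and Klf16 overlapped within the controls; the ranges of all other neighbours were separate within a group.

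The summed FPKM of the 9 genes was 396.5, 380.8 and 368.5 in null libraries and 426.2, 417.3 and 410.7 in control libraries. Of this, the naive-state trio of Klf2, Klf4 and Klf5 made 206.2, 178.7 and 176.7 FPKM in null libraries, against 237.9, 230.5 and 227.7 FPKM in control libraries. The other 6 members together made 190.3, 202.1 and 191.9 FPKM in null libraries and 188.3, 186.8 and 183.0 FPKM in control libraries. As a share of the sum the trio took 52.01%, 46.9% and 47.9% in null libraries and 55.8%, 55.2% and 55.4% in control libraries. Klf9 alone took 19.9%, 21.0% and 20.7% in null libraries, against 15.9%, 16.1% and 16.5% in control libraries. These sums are descriptions and were not tested.

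**Figure D3:**
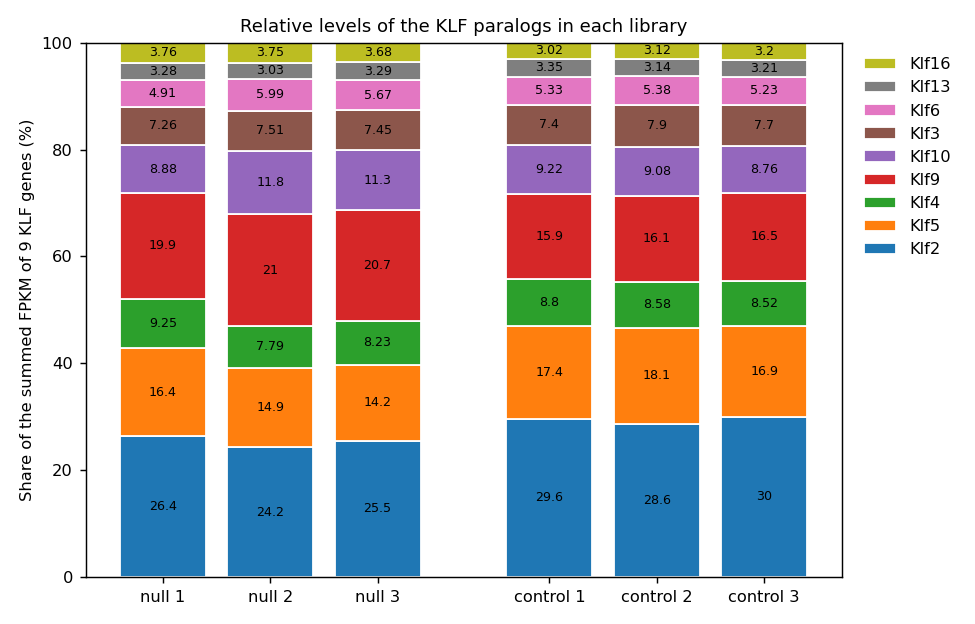
Share (%) of each KLF gene in the summed FPKM of the 9 genes, 1 bar per library, null libraries at the left and control libraries at the right. Klf9 (red) is wider and Klf2 and Klf5 (blue and orange) are narrower in each null bar than in any control bar.

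Ratios within a library, which do not depend on its scaling, were compared for the naive-state trio. The Klf5/Klf2 ratio was 0.620, 0.614 and 0.557 in null libraries and 0.586, 0.632 and 0.565 in control libraries, so the groups overlapped and the mean log2 difference was 0.01. The Klf4/Klf2 ratio was 0.350, 0.321 and 0.323 in null libraries and 0.297, 0.300 and 0.284 in control libraries. The Klf4/Klf5 ratio was 0.565, 0.523 and 0.579 in null libraries and 0.507, 0.475 and 0.503 in control libraries. Both ratios with Klf4 were higher in every null library, by means of 0.17 on the log2 scale. Exact two-sided permutation tests gave p = 0.1 for each, the smallest that 20 assignments of 3 against 3 libraries allow, and p = 1 for Klf5/Klf2 (Benjamini-Hochberg adjusted over the 3 ratios, 0.15, 0.15 and 1).

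**Figure D4:**
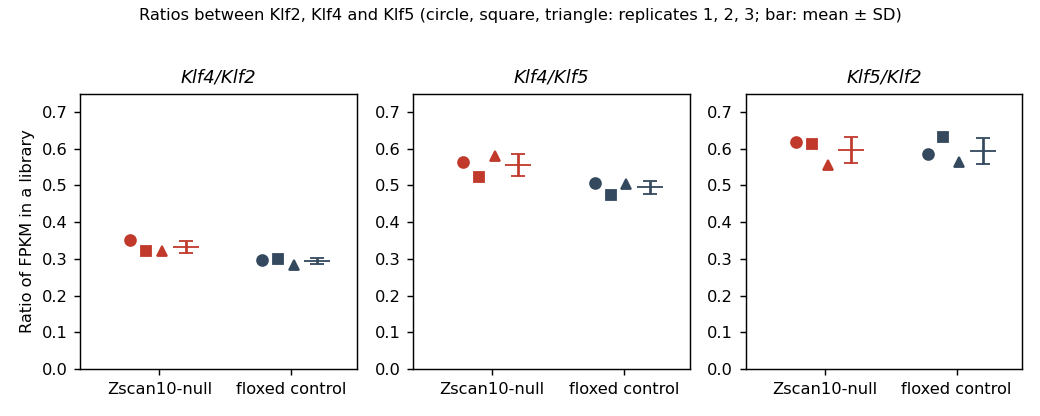
Ratios of FPKM between Klf2, Klf4 and Klf5 in each library (axis from 0), null libraries (red) at the left and control libraries (dark) at the right of each panel, with the mean and SD. Klf4/Klf2 and Klf4/Klf5 are separate between the groups and Klf5/Klf2 overlaps.

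The 17 other KLF and SP genes, SP1 to SP9 being the closest relatives of the KLFs, gave 10 loci above the FPKM minimum, of which 2 were higher, 1 was lower and 7 did not pass. Klf15, known in other tissues as a glucocorticoid-responsive metabolic regulator, had 9.02, 10.6 and 9.01 FPKM in null libraries and 6.37, 6.42 and 7.545 FPKM in control libraries. Its log2 fold change of 0.44 (SE 0.09, limma adjusted p = 0.0129) was larger in size than that of any of the 9 genes. Sp3, a GC-box factor, had 69.75, 70.3 and 71.4 FPKM in null libraries and 57.2, 57.6 and 63.7 FPKM in control libraries (0.24, SE 0.05, limma adjusted p = 0.0120). Sp2 had 7.09, 6.86 and 6.19 FPKM in null libraries and 10.3, 9.33 and 9.145 FPKM in control libraries (-0.46, SE 0.07, limma adjusted p = 0.00518). The median log2 fold change of the 10 loci was 0.07. For comparison, 12.8% of all tested loci were higher and 12.4% lower. Klf8 and Klf12, which recruit CtBP as Klf3 does and are named after their values were seen, were not called, at 15.1 ± 0.573 and 4.97 ± 0.488 FPKM in null cells and 14.4 ± 0.311 and 5.975 ± 0.0570 FPKM in control cells (limma adjusted p = 0.423 and 0.0697).

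**Figure D5:**
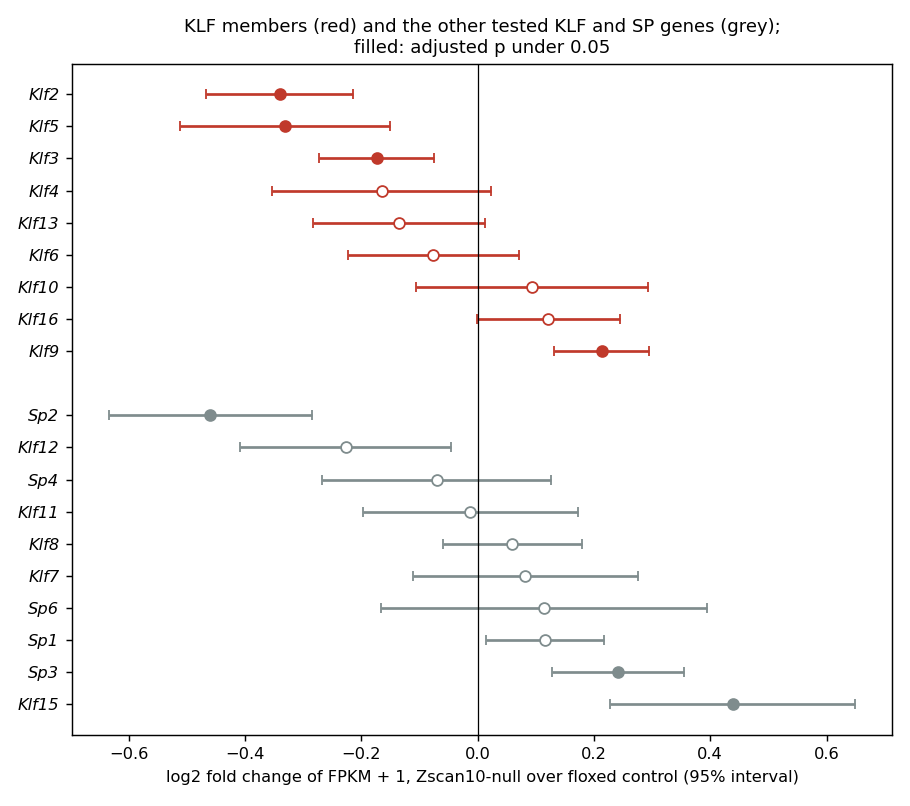
Log2 fold change of FPKM + 1, Zscan10-null over floxed control, with its 95% interval, for the 9 KLF genes (red, above) and the 10 other tested KLF and SP genes (grey, below). Filled points passed an adjusted p of 0.05: Klf2, Klf5, Klf3 and Klf9 among the 9, and Sp2, Sp3 and Klf15 among the rest.

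Of 10 genes of KLF cofactors, 2 were higher and 0 lower (median log2 fold change 0.02), where 12.8% of all tested loci were higher and 12.4% lower. Hdac1, a histone deacetylase of the SIN3 complex, had 179.8, 177.3 and 168.3 FPKM in null libraries and 149.4, 155.1 and 151.5 FPKM in control libraries (0.20, SE 0.04, limma adjusted p = 0.00880). Hdac2 had 123.6, 126.2 and 133.2 FPKM in null libraries and 109.0, 113.1 and 117.9 FPKM in control libraries (0.17, limma adjusted p = 0.0299, but 0.105 with quantile normalization and 0.0667 without the variance trend). The call of Hdac2 was also lost without null replicates 2 or 3 or control replicates 1 or 2. Of 6 tested ubiquitin ligase genes reported to act on KLF proteins, 1 was higher and 1 lower (median 0.05). Wwp1, whose product acts on KLF2 and KLF5, had 10.8, 10.2 and 10.7 FPKM in null libraries and 12.5, 13.0 and 12.8 FPKM in control libraries (-0.25, limma adjusted p = 0.0127, and 0.0526 without control replicate 2). Btrc, which encodes a substrate receptor of such a ligase, had 6.185, 5.74 and 6.21 FPKM in null libraries and 4.18, 4.15 and 4.54 FPKM in control libraries (0.41, limma adjusted p = 0.00588).

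Of 19 tested genes of the signals that act on KLF genes, 3 were higher and 4 lower (median -0.04). Among all tested loci 12.8% were higher and 12.4% lower. Stat3, the LIF effector, had 20.85, 19.3 and 21.4 FPKM in null libraries and 27.3, 27.5 and 26.8 FPKM in control libraries and fell without overlap (log2 fold change -0.39, SE 0.05, limma adjusted p = 0.00232). Jak2, a receptor-associated kinase, was low and had 0.973, 0.854 and 0.783 FPKM in null libraries and 2.01, 2.12 and 1.65 FPKM in control libraries (-0.64, limma adjusted p = 0.00538). Socs3, a STAT3 target and feedback inhibitor, moved the other way, at 44.1, 44.3 and 44.3 FPKM in null libraries and 40.1, 39.8 and 37.3 FPKM in control libraries (0.18, limma adjusted p = 0.0219). Its call was lost without null replicates 2 or 3 or control replicates 2 or 3 (adjusted p of 0.0541 to 0.0623). Smad3, a TGF-beta effector, was at 4.38 ± 0.230 FPKM in null cells and 3.36 ± 0.123 FPKM in control cells (0.30, limma adjusted p = 0.0224), a call lost without an FPKM minimum (adjusted p = 0.0505), with the replicate block (0.0579) and on leaving out any library except null replicate 2 (0.0516 to 0.0707). The levels of STAT3 and KLF RNA were measured side by side, and whether the one bears on the other was not tested.

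In the ES cell transcription circuit to which Klf2, Klf4 and Klf5 belong, 10 of 16 genes were lower, 2 were higher and 4 did not pass. The median log2 fold change of the 16 genes was -0.24. Pou5f1, Sox2, Nanog and Nr5a2, named after their values were seen, were those that did not pass (log2 fold changes -0.07, -0.03, 0.13 and 0.12). Across all tested loci 12.4% were lower and 12.8% higher, and the list was drawn up with earlier results of these data known. Lefty2, an inhibitor of Nodal, had 26.2, 29.4 and 28.01 FPKM in null libraries, against 56.6, 57.7 and 54.1 FPKM in control libraries (log2 fold change -0.98, limma adjusted p = 8.75e-05). The nuclear receptor gene Nr0b1 was at 39.9 ± 3.26 FPKM in null cells and 71.1 ± 4.25 FPKM in control cells (-0.82), and Tcl1, an AKT coactivator gene, at 59.3 ± 2.04 FPKM in null cells and 76.8 ± 3.29 FPKM in control cells (-0.37). Tbx3, a factor of the same circuit, was higher, at 26.9 ± 2.58 FPKM in null cells and 14.9 ± 0.519 FPKM in control cells (0.81, limma adjusted p = 6.45e-04). The falls of Klf2 and Klf5 thus lay within the range of the genes called lower in this list, between Esrrb at -0.21 and Lefty2 at -0.98.

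Several members can be induced as immediate-early genes, so that list was set beside them. Of its 10 tested genes 2 were higher and 0 lower, where 12.8% of all tested loci were higher and 12.4% lower. The median log2 fold change of the 10 genes was -0.07. Jund was at 34.9 ± 1.08 FPKM in null cells and 26.9 ± 0.877 FPKM in control cells (0.36, limma adjusted p = 0.002005), and Myc at 15.1 ± 1.83 FPKM in null cells and 10.99 ± 0.537 FPKM in control cells (0.42, limma adjusted p = 0.0129). The other 8 tested genes did not pass. Among these Egr1, named after its values were seen, was lower in every null library than in any control library. Its log2 fold change was -0.53 (limma adjusted p = 0.0518), and the groups of the rest overlapped.

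Markers placed both groups with ES cells: Pou5f1, Sox2, Nanog, Zfp42 and Esrrb together made 1620 to 1732 FPKM in null libraries and 1784 to 1823 FPKM in control libraries, with Zfp42 and Esrrb lower (log2 fold changes -0.23 and -0.21). Pou5f1, Sox2 and Nanog overlapped between the groups and were not called. Their means were 513.4, 267.8 and 247.7 FPKM in null cells and 538.3, 272.5 and 225.3 FPKM in control cells, so that of Nanog was higher in null cells. Zfp42 lost its call with the replicate block (limma adjusted p = 0.0512) and without null replicate 3 or control replicates 1 or 3 (0.0544 to 0.0640). Fibroblast markers, which would mark feeder cells, summed to 4.94 to 5.86 FPKM in null libraries and 5.41 to 6.28 FPKM in control libraries over 10 genes, and only Thy1 and Twist1 reached the minimum for the test. The collagen genes Col1a1 and Col1a2, below that minimum and named after their values were seen, were lower in every null library than in any control library. Col1a1 had 0.0540, 0.0975 and 0.107 FPKM in null libraries, against 0.826, 0.587 and 0.8025 FPKM in control libraries. Col1a2 had 0.0492, 0.111 and 0.0728 FPKM in null libraries, against 0.921, 1.31 and 1.17 FPKM in control libraries. Postn was at 0 in every null library and at 0.0752 to 0.0822 FPKM in control libraries. Col3a1, the other collagen gene listed, overlapped, at 0.136, 0.735 and 0.313 FPKM in null libraries and 0.491, 0.328 and 0.269 FPKM in control libraries. The groups also overlapped for Dcn, Lum, Pdgfrb and Twist2, all below the minimum. Thy1 was higher (log2 fold change 0.60), and Twist1 was not called, at 1.31 ± 0.221 FPKM in null cells and 1.45 ± 0.0668 FPKM in control cells. The part of feeder RNA in the KLF differences was not tested. Primitive endoderm markers summed to 4.38 to 6.66 FPKM in null libraries and 7.30 to 8.88 FPKM in control libraries over 9 genes, with Cubn lower (log2 fold change -0.74) and Gata4 and Dab2 not called (limma adjusted p = 0.560 and 0.0518). Trophectoderm markers summed to 55.95 to 69.9 FPKM in null libraries and 48.7 to 55.0 FPKM in control libraries over 8 genes. Of these Eomes, Hand1 and Tfap2c were higher (log2 fold changes 1.14, 0.83 and 0.49), and Cdx2 and Elf5 stayed under 0.5 FPKM in every library. Krt8 and Krt18 overlapped between the groups and were not called. Their means were 13.9 and 16.9 FPKM in null cells and 15.5 and 15.7 FPKM in control cells. Primed epiblast markers summed to 138.7 to 153.3 FPKM in null libraries and 108.3 to 113.7 FPKM in control libraries over 6 genes, with Dnmt3b and Pou3f1 higher and Lef1 lower (log2 fold changes 0.54, 0.48 and -0.78). Most of this sum was Dnmt3b, at means of 115.8 FPKM in null cells and 79.4 FPKM in control cells. Otx2 was not called, at 24.1 FPKM in null cells and 24.9 FPKM in control cells (limma adjusted p = 0.619). Fgf5 and T were below the minimum. The calls of Thy1 (without null replicates 2 or 3) and Pou3f1 (without null replicates 2 or 3 or control replicates 1 or 3) were lost, at adjusted p-values of 0.0511 to 0.0590, and Dab2 was called without null replicate 1 (0.0197). The part of such cell states in the KLF differences was not tested.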

How the data were processed

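RNA was measured in 3 Zscan10-null and 3 floxed control libraries, grouped by their titles. TopHat, Cuffdiff, Trim Galore and FastQC are listed, with the build mm10, per the submitters' processing notes; the sources used here give neither versions nor roles. Each deposited file lists, per the file headers, a locus with its symbol, RefSeq accession and a single value. No label states the unit; the authors' values were taken as FPKM, because they are not whole numbers and their totals differ between libraries. The values were used as deposited, and the sources used here do not say how the authors scaled the libraries.

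Of 23244 loci, 4768 were at 0 in every library. Depth was read from values below 0.15 FPKM: within 1%, 90.8% of 2214 such values were whole multiples of their gene's smallest value after depth scaling, and 168 genes gave the fragment number, a rough estimate. The fit used limma 3.58.1 (R 4.3.3; eBayes, variance trend on mean level) on log2(FPKM + 1) at loci whose mean reached 1 FPKM, with no covariate and Benjamini-Hochberg adjustment; fold changes on this scale understate changes of low genes. A ± value is an SD over 3 libraries, and intervals are 95% intervals of the fit. Single values were also compared by exact permutation, which cannot go below p = 0.1 here. The test was tried on simulated data.

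Members and gene lists were chosen with earlier results of these data known. All 9 members are named, and of each list up to 4 genes past the threshold with the smallest adjusted p, or, in lists with under 2 such genes, the 2 most abundant; others are named after their values were seen. Alternatives changed the pseudocount, the FPKM minimum, the scaling, the variance trend, a replicate block and each library in turn. Sequences came from RefSeq (GRCm38.p6) and GENCODE M21.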

Additional observations from a re-analysis of the deposited data

How the results depend on the processing

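Across the 14 alternatives, 117 of 126 results for the 9 members kept direction and side of the threshold, 8 lost a call, 1 gained one and 0 reversed. All 9 lost or gained calls came from leaving out 1 library. The members called stayed Klf2, Klf3, Klf5 and Klf9 with pseudocounts of 0.1 and 0.01, without an FPKM minimum, with a minimum of 5 FPKM, with median centring, with quantile normalization, without the variance trend and with the replicate block. Leaving out 1 library in turn gave 2 to 5 called members: 5 without null replicate 1, 3 without null replicate 3 or control replicate 3, and 2 (Klf2 and Klf9) without null replicate 2 or control replicates 1 or 2. The log2 fold changes then ran from -0.40 to -0.31 for Klf2, -0.41 to -0.26 for Klf5, -0.19 to -0.15 for Klf3, -0.26 to -0.11 for Klf4 and 0.20 to 0.23 for Klf9. Among the members not called in any of these fits they ran from 0.02 (without null replicate 2) to 0.19 (without null replicate 1, adjusted p = 0.0535) for Klf10, -0.13 (without null replicate 2) to -0.02 (without null replicate 1) for Klf6, -0.18 to -0.10 for Klf13 and 0.09 to 0.15 for Klf16. Called loci numbered 1719 to 2914 (930 to 1472 higher, 789 to 1442 lower), with 1776 without control replicate 1, 1719 without control replicate 2 and, of lower loci, 891 without control replicate 3, against 2894 (1468 higher, 1426 lower) in the full fit. The Klf5/Klf2 difference ran from -0.0287 to 0.0564 on the log2 scale, reversed at -0.0208 without null replicate 1, -0.0145 without null replicate 2, -0.0026 without control replicate 1 and -0.0287 without control replicate 3 (0.01 with all libraries), all within the spread between libraries. The Klf4/Klf2 difference ran from 0.13 to 0.19 and that of Klf4/Klf5 from 0.14 to 0.21.

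Deviations of same-numbered libraries correlated at -0.00242, 0.108 and 0.0527, within the range of differently numbered ones (-0.222 to 0.163). Taken within groups of 3 libraries, such deviations cannot show whether equal numbers share a culture or batch. With the replicate block 2264 loci were called and the called members were the same 4. Of 422 results for 31 other named genes, 393 kept their side of the threshold, 28 lost a call, 1 gained one and 0 reversed. Median centring moved the median of all loci from -0.003 to 0.02 and raised the share of called loci that were higher from 50.7% to 58.6%. Fragment numbers are rough, so depth limits were not set per gene. Fits without a library hold fewer samples, and the cause of the lost calls was not tested further.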

Other observations

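Sp5 and Sp8 were below the FPKM minimum and are named after their values were seen, since their null values did not overlap with their control values. Sp5, a WNT target in ES cells, was listed at 0.0642, 0.0580 and 0 FPKM in null libraries and at 0.443, 0.174 and 0.382 FPKM in control libraries. Sp8, its close relative, was listed at 0.0852, 0.0512 and 0.0841 FPKM in null libraries and at 0.196, 0.360 and 0.337 FPKM in control libraries. At such levels a value rests on a few fragments, and neither was in the test.

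The microRNA gene Mir1192, which the annotation places within Klf9, was listed at 56.5 FPKM in null replicate 1 and at 0 in the other 5 libraries. Klf9 itself had 78.9 FPKM in that library, between the values of the other null libraries. FPKM divide by length, so a few fragments at a short locus can give a high value. The fragments of Mir1192 were not estimated.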
